A study of Mus musculus with 7 samples.

Results

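The genes described here are 31 megakaryocyte and platelet genes, a list of symbols proposed with earlier results of these libraries in view. All 31 were found by symbol among the 32285 genes of the count tables. The study is about protein glycosylation and the choice of blood stem cells to become megakaryocytes. Its single-cell libraries come from mouse bone marrow of tibia and femur, from which LSK cells were sorted. These cells lack lineage markers and carry Sca-1 and cKit, and the gate takes in stem cells and early progenitors. The knockout-labelled group had 3 libraries (KO1 to KO3) of the genotype 129S1/C57Bl/6, B4-/-, described as a full knockout of B4galt1, a galactosyltransferase of protein sugar chains. The control group had 4 libraries (WT1 to WT4) of 129S1/C57Bl/6 background, labelled WT. No treatment and no age is given for either group, and whether each library came from its own mouse is not stated, so p-values measure the spread between these libraries.

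Megakaryocytes are the bone marrow cells that shed platelets. They arise from stem cells through progenitors that progressively switch on genes for platelet granule proteins, adhesion receptors, signalling proteins and a specialised cytoskeleton. Part of this programme, among it the integrin gene Itga2b, is already transcribed in stem cells. Transcription factors of the GATA and ETS families are known regulators of megakaryocyte genes. In the list, Pf4 and Ppbp are chemokines of platelet alpha granules and Thbs1 is a granule adhesive protein. Gp1ba, Gp1bb, Gp5 and Gp9 are the subunits of the receptor for von Willebrand factor, Gp6 is a collagen receptor, Itga2b and Itgb3 form the fibrinogen receptor, and Clec1b and Treml1 are further platelet receptors.

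Pf4 and Ppbp lie next to each other on chromosome 5. In the GRCm38 annotation (GENCODE M21), Ppbp (ENSMUSG00000029372) runs from 90768518 to 90770063 and Pf4 (ENSMUSG00000029373) from 90772435 to 90773383, both on the plus strand, 2371 bases apart. Gp9 (ENSMUSG00000030054) lies on chromosome 6 from 87778072 to 87779768, and Gp1ba (ENSMUSG00000050675) on chromosome 11 from 70639122 to 70642036. The 250 bases before the start of these 4 genes are shown because the neighbouring chemokine genes and the 2 subunits of 1 receptor are compared below; they are RefSeq sequences of the build GRCm38.p6. Capitals mark AGATAA or TGATAA, the letters of a GATA site, and AGGAAG or CGGAAG, the core of an ETS site, on either strand.
Pf4 (chr5:90772185-90772434, plus strand): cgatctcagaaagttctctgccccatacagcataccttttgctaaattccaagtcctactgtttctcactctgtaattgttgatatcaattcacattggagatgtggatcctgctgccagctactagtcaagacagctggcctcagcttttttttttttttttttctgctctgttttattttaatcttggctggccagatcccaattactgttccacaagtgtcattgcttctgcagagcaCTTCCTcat
Ppbp (chr5:90768268-90768517, plus strand): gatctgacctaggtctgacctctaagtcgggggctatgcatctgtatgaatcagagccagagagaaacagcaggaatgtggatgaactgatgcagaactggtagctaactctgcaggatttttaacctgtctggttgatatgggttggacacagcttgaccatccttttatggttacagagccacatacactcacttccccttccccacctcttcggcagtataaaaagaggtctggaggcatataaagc
Gp9 (chr6:87777820-87778069, plus strand): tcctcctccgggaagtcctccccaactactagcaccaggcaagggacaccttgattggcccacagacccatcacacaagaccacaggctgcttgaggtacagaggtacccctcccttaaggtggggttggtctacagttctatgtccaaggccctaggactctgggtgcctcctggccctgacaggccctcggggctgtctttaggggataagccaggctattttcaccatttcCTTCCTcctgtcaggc
Gp1ba (chr11:70638872-70639121, plus strand): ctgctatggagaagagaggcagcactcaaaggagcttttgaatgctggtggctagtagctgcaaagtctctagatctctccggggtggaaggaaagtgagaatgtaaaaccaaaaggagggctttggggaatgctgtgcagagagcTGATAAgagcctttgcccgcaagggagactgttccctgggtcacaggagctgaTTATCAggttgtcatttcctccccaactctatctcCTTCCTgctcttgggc
Gp1ba held both kinds of letters, Pf4 and Gp9 held ETS letters only, and Ppbp held neither. The promoter table had 24 of the 31 genes, and of these 6 (25%) held GATA letters, against 17.0% of the 27025 genes in that table. ETS letters stood in 11 of the 24 (45.8%), against 39.0% of all, and both kinds in 3 (12.5%), against 5.57% of all. The GATA and ETS letters can overlap at their ends. These counts describe letters and not bound sites.

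The libraries held 14970791 to 89747946 UMIs (unique molecules), and 1172 to 8862 cells per library passed the filters, 24430 in all. Cells had a median of 8046 to 11084 UMIs. The cell barcodes opened with different sets of sequences in different libraries. KO3 and WT4 (list B) shared the same 480 openings of 6 bases, while KO1, KO2, WT1, WT2 and WT3 (list A) used 900 to 958 openings. List B libraries had a median mitochondrial share of 2.13% and 2.19% against 3.57% to 4.64% in list A, and they kept 96.2% to 98.3% of their barcodes against 32.4% to 49.9%. KO3 and WT4 also shared 68 full barcodes among their kept cells. B4galt1 itself did not separate the labels: its TMM-normalised CPM (a gene's count scaled to library size) was 53.1, 53.1 and 31.7 in the knockout-labelled libraries and 54.1, 60.7, 52.0 and 39.4 in those labelled WT (edgeR log2 difference -0.14, SE 0.12, adjusted p 0.537). Which exons were removed is not stated, so a 3′ count need not show the knockout, and groups are named here by their labels. Xist, transcribed from an inactive X chromosome, was at 1926 to 2550 CPM in KO1, KO2, WT1 and WT2 and at 0.106 to 0.723 CPM in KO3, WT3 and WT4, while Ddx3y of the Y chromosome showed the opposite. Within list A both knockout-labelled libraries thus expressed Xist, as WT1 and WT2 did and WT3 did not. The part of this difference in the results below was not tested.

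Of the 31 genes, 26 had a UMI in all 7 libraries. In the 24430 cells, 13 genes were detected in over 10% of cells and 5 in under 1%. Genes that stem and progenitor cells also use were the common ones. Plek, a substrate of protein kinase C, had a UMI in 54.0% of cells, the tetraspanin Cd9 in 43.6% and the Mediator-related gene Med12l in 42.8%. Pf4 had a UMI in 15.2%, Itga2b in 16.3% and Gp9 in 15.2%. The 5 rarest genes were each under 1%. Gp6 and Tubb1, the platelet beta-tubulin, had a UMI in 0.0778% each, Gp1bb in 0.143%, the lipoxygenase Alox12 in 0.401% and Gp1ba in 0.896%. The list thus covers genes at very different depth. Gp1bb, Gp6, Tubb1, Alox12 and the receptor gene Clec1b did not pass the filter on low counts for the test between the labels.

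Cells were thinned to 3000 UMIs each so that shares can be compared between depths (23712 cells, leaving out 718 shallower ones). Pf4 was then detected in 2.14%, 0.640% and 10.9% of the cells of KO1, KO2 and KO3, and in 2.39%, 1.49%, 2.47% and 9.40% of those of WT1 to WT4. Without thinning the shares ran from 1.33% to 23.7%. The 2 list B libraries stood above all list A libraries whatever their label. In 12 of the 31 genes both list B libraries had a higher share of positive cells than every list A library, against 18.4% of all genes, and in Med12l, Inpp4b and Plcb1 both were lower, against 26.2% of all genes. Smim5 was at 7.03% and 10.2% in list B and between 2.24% and 5.12% in list A, and Gp9 at 6.40% and 8.75% against 1.12% to 3.80%.

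The share of Pf4-positive cells did not separate the labels. It averaged 4.57% ± 5.57 (SD, n = 3) in knockout-labelled and 3.94% ± 3.67 (SD, n = 4) in WT-labelled libraries, a difference of 0.636 percentage points in a two-sided exact permutation test with p = 0.80, where the smallest p of the 35 splits is 0.0286. This test did not take barcode list into account, and list B gave 1 of the 3 knockout-labelled and 1 of the 4 WT-labelled libraries. Within list A the direction turned, with a difference of -0.729 points (exact permutation p = 0.400, smallest possible 0.100). Within list B, KO3 was 1.54 points above WT4, which has no test. Without KO3 the difference was -2.55 points and without WT2 it was -0.180 points. Leaving out KO3 left the knockout label with no list B library, so label and barcode list cannot be told apart in that value.

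The share of Pf4-positive cells was highest in the stem gate in 6 of the 7 libraries, all but KO2. This gate took cells with UMIs of at least 2 of 10 stem cell genes and none of Flt3, Dntt, Mpo and Cd48. In list B, 21.7% of stem-gated cells in KO3 (95% Clopper-Pearson interval 19.1% to 24.4%) and 19.4% in WT4 (17.4% to 21.6%) were Pf4-positive. Cells with a UMI of the lymphoid gene Dntt, taken as cells that should lack Pf4, were Pf4-positive in 4.15% of KO3 and 3.14% of WT4 cells, at median depths of 10908 and 8753 UMIs before thinning against 7564 and 6461 in the stem gate. The stem-gated share was above that level in both, with intervals that did not overlap. In list A it was 6.79% in KO1, 0.465% in KO2 and 3.43% to 6.79% in the WT-labelled libraries, against 0% to 1.28% in Dntt-positive cells. KO2 had 1 positive cell among 215 in the stem gate and 0 among 175 Dntt-positive cells, with intervals that overlapped (0.0118% to 2.56% and 0% to 2.09%). In WT2 the intervals of the stem-gated and the Dntt-positive share overlapped as well (1.39% to 6.94% and 0% to 1.70%). Intervals here and below cover counting error only.

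**Figure D1:**
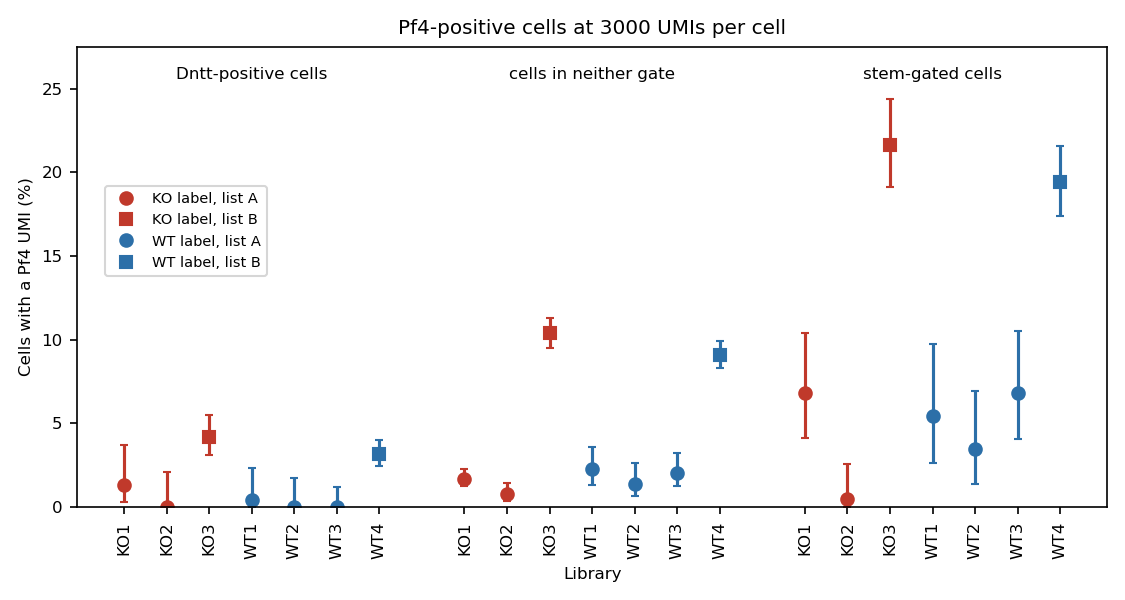
Share of cells with a Pf4 UMI after thinning to 3000 UMIs (y axis, percent) in each library (x axis), for Dntt-positive cells, cells in neither gate and stem-gated cells. Points are shares, bars are 95% Clopper-Pearson intervals, colour gives the label and shape the barcode list. List B squares (KO3, WT4) stand above the list A circles in each set of cells, and stem-gated cells reach 21.7% and 19.4% there.

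The Pf4 molecules themselves sat in very few cells. KO1 held 1989 Pf4 UMIs, of which 1026 (51.6%) came from 1 cell, and WT2 held 692, of which 632 (91.3%) came from 1 cell. In KO3 the top 10 cells held 56.4% of the 34278 Pf4 UMIs, and in WT4 they held 59.5% of 11602. KO2 had 26 Pf4 UMIs in 23 cells, WT1 78 in 57 cells and WT3 166 in 116 cells. Sums of Pf4 per library therefore rest on single cells in KO1 and WT2. Ppbp, its chromosomal neighbour, showed the same in KO3, where 1 cell gave 442 of 1009 UMIs (43.8%), but not in WT4, where the top cell gave 15 of 306 (4.9%). Itga2b was spread more evenly: the top cell gave 1.87% to 11.1% of a library's UMIs, the highest again in WT2.

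**Figure D2:**
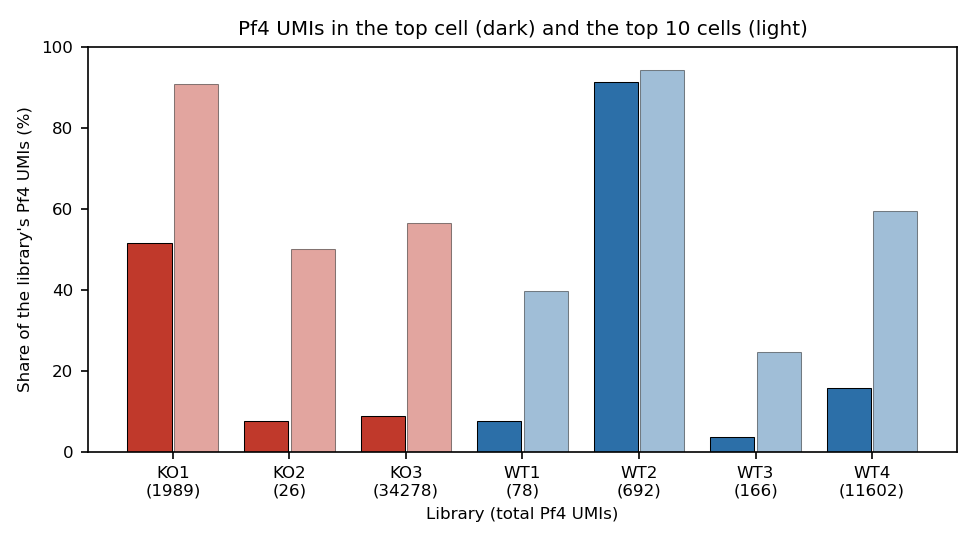
Share of a library's Pf4 UMIs (y axis, percent) held by its top cell (dark bars) and top 10 cells (light bars) in each library, with total Pf4 UMIs under the names. The single top cell holds 91.3% in WT2 and 51.6% in KO1.

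To follow the genes from the stem gate to Pf4-rich cells, thinned cells were placed in 5 stages: stem-gated without Pf4, stem-gated with Pf4, and outside the stem gate with 1, with 2 to 4 and with 5 or more Pf4 UMIs. Dntt-positive cells without Pf4 were the reference. Pf4 and the stem genes define the stages, and the genes were chosen with the data in view, so levels are a description with no test. List B held 1896, 484, 799, 198 and 81 cells in the 5 stages (58 of the last in KO3 and 23 in WT4). List A held 1094, 55, 90, 4 and 4, and the last 4 cells were all from KO1, so its last stages are too thin to rank genes.

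In the list B cells with 5 or more Pf4 UMIs, 22 of the other 30 genes in KO3 and 20 in WT4 stood above the stem-gated Pf4-negative cells with 95% Poisson intervals that did not overlap, and 0 stood below. The same rule placed 3.77% of measured genes above and 2.82% below in KO3, and 2.42% above and 1.17% below in WT4. The list was chosen with these data in view and the cells by Pf4, so these shares describe and do not test. The intervals also treat UMIs as independent, while in KO3 the 42 Ppbp UMIs of Pf4-rich cells sat in 10 of 58 cells. The 19 genes above in both libraries included the granule protein Ppbp along with receptors, signalling and cytoskeletal genes. Pf4-rich cells carried a median of 7 of the other 30 genes, against 2 in each of the 3 stages from the stem gate to 1 Pf4 UMI and 3 at 2 to 4 UMIs. They were also deeper before thinning, with a median of 15858 UMIs against 6786 in stem-gated Pf4-negative cells. Among the cells with the highest doublet scores were 3 of the 81, against 66 of 1896 stem-gated Pf4-negative cells. The scoring (Scrublet) is taken as not having worked, so these counts say little about doublets. Whether depth or doublets took part in these levels was not tested.

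Levels by stage are CPM of the thinned counts. Among granule proteins, the CPM of Ppbp in list B was 0.883 in the Dntt-positive reference, 5.45 in stem-gated cells without Pf4, 15.2 in those with Pf4, 3.34 and 25.3 outside the gate at 1 and at 2 to 4 Pf4 UMIs, and 210 in Pf4-rich cells. Cells with 1 Pf4 UMI outside the gate were thus below the Pf4-positive stem-gated cells for Ppbp, with intervals of 1.44 to 6.58 and 9.495 to 22.9. By the way the stages were built, they were also lower in Pf4. Thbs1 stayed low in list B throughout, at 0.352 and 4.12 CPM in the first and last stage, while in list A it was at 14.02 CPM in the first stage and 8.85 CPM in the reference. Apoe, a lipid carrier that is also expressed by stem cells, ran against the pattern, at 141 CPM in stem-gated Pf4-negative cells, 224 CPM at 2 to 4 Pf4 UMIs and 103 CPM in Pf4-rich cells of list B.

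Among surface receptors, both fibrinogen receptor subunits were highest in the last stage. Itga2b in KO3 was at 30.0 CPM (95% Poisson interval 23.3 to 37.95) in stem-gated cells without Pf4, 91.2 CPM (69.2 to 118) in those with Pf4 and 270 CPM (198 to 359) in Pf4-rich cells. In WT4 the same stages gave 17.7 CPM (13.5 to 22.8), 49.0 CPM (35.02 to 66.8) and 203 CPM (111 to 340). The intervals of these 3 groups of cells did not overlap in either library. The levels of Itga2b were not a steady rise over the 5 stages. Outside the stem gate, cells with 1 Pf4 UMI were lower than Pf4-positive stem-gated cells, at 52.3 CPM (39.7 to 67.5) in KO3. In WT4 they were at 28.0 CPM (19.6 to 38.7), where the intervals overlapped. These cells were also lower in Pf4 by the way the stages were built, so the dip need not be a step on the path. In list B the intervals of Itgb3 overlapped between the first stages, at 6.52 CPM and 9.43 CPM in KO3 and at 5.02 CPM and 4.9 CPM in WT4, and the gene reached 109 CPM in KO3 and 130 CPM in WT4 in Pf4-rich cells. In list A Itgb3 was at 13.7 CPM (10.0 to 18.3) in stem-gated Pf4-negative cells, above the 3.14 CPM (1.57 to 5.62) of the reference. Gp9 was already at 41.3 CPM in KO3 and 30.4 CPM in WT4 in stem-gated Pf4-negative cells and reached 115 and 188 CPM. Gp1ba, which pairs with Gp9 in the same receptor, was at 2.11 CPM in the first stage and 12.3 CPM in the last in list B. The last value rests on very few UMIs. In KO3 it was 1 UMI in 58 cells (5.75 CPM, 0.146 to 32.0), which overlapped the first stage (2.17 CPM, 0.706 to 5.07). Gp6 had no UMI in any stage after thinning; 0 of 81 Pf4-rich cells allows a share of up to 3.70% with a UMI at 3000 UMIs per cell, which does not limit the cells expressing it. Before thinning, KO3 had 26 Gp6 UMIs in 13 cells. Cd9 was at 145 CPM at the start and 852 CPM at the end, with a UMI in 76.5% of Pf4-rich cells.

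Signalling and cytoskeletal genes followed. Cavin2, a protein of caveolae, was at 0.110 CPM in the reference, 11.6 CPM in the first stage and 296 CPM in the last of list B. Tuba8, an alpha-tubulin, was at 4.22 CPM and 94.7 CPM, Rab27b, a small GTPase of granule transport, at 30.9 CPM and 247 CPM, and Mfsd2b, a transporter of sphingosine-1-phosphate, at 5.10 CPM and 98.8 CPM in these stages. These 4 genes had their highest list B level in the Pf4-rich cells. Plek was at 155 CPM in the Dntt-positive reference, above the 81.2 CPM of stem-gated Pf4-negative cells, before it reached 383 CPM. The urea transporter Slc14a1 was likewise at 58.9 CPM in the reference and 47.6 CPM in the first stage, and at 181 CPM in the last. Tubb1 had no UMI in Pf4-rich cells of either list.

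By the rule that a gene appears where it first reaches 0.5 of its highest stage level (mean of the 2 lists), 2 genes appeared in the first stage (Apoe and Tgfbr3, a co-receptor for TGF-beta), 3 in the second (Gp1ba, the thrombin receptor F2r and Med12l), 1 in the third (Tubb1, on 1 UMI in 90 list A cells), 6 in the fourth (Gp9, Plek, Alox12, Slc14a1, Smim5 and the phosphatase Inpp4b) and 18 in the last. Gp6 had no level to rank. The last group held Itga2b, Itgb3, Cd9, Ppbp, Cavin2, Tuba8 and Mfsd2b among others. The fourth and the last stage lean on 4 cells each in list A, and the mean gives the 2 lists equal weight. In list B alone 21 genes appeared in the last stage and 3 in the fourth, and 21 of 31 genes kept their stage. Gp1ba and F2r then appeared in the last stage and Tgfbr3 in the second, while Apoe and Med12l kept their stage. With 0.25 of the highest level in place of 0.5, 12 genes appeared within the stem gate in place of 5.

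**Figure D3:**
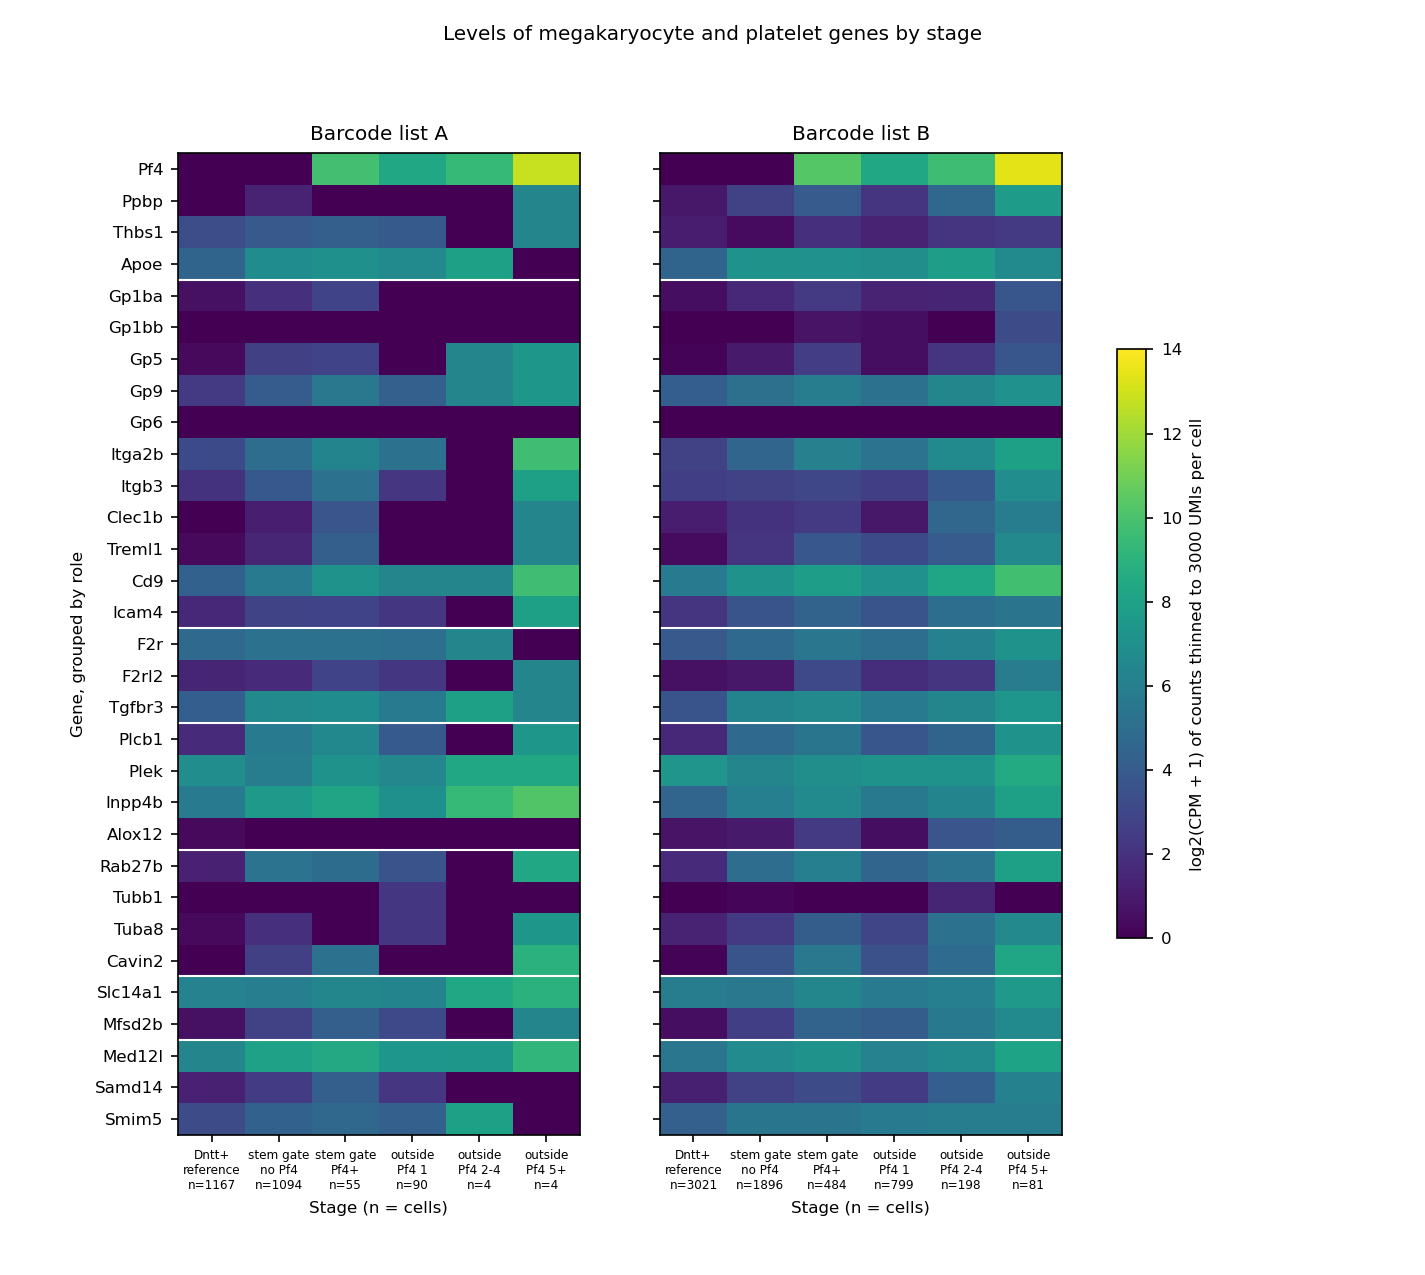
Levels of the 31 genes (rows, grouped by role) in the reference and the 5 stages (columns, with cell numbers) for barcode lists A and B, as log2(CPM + 1) of counts thinned to 3000 UMIs per cell. In list B most genes are brightest in the last column, while Apoe peaks at 2 to 4 Pf4 UMIs and Plek and Slc14a1 are already bright in the reference; in list A the last 2 columns hold 4 cells each.

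Other cell types were looked for in the same stages. In list B Pf4-rich cells all 6 macrophage markers were at 0. Of 4 endothelial markers 3 had UMIs, summing to 53.5 CPM against 106 CPM in stem-gated Pf4-negative cells, and Cdh5 was at 0 in both. Erythroid markers summed to 185 CPM, with 5 of 10 at 0, against 183 CPM in stem-gated Pf4-negative cells with 1 of 10 at 0; of basophil and mast cell markers 7 of 8 were at 0. Granulocyte and monocyte markers summed to 383 CPM against 299 CPM, and stem markers to 498 CPM against 1764 CPM. Mpo, among the granulocyte and monocyte markers, had to be at 0 in the stem gate. That gate also chose cells by stem genes, and the Pf4-rich cells were taken from outside it. Neither contrast is thus independent of the gate, and the lower stem sum is no separate finding. Lymphoid markers summed to 210 CPM, with 4 of 5 seen, against 28.3 CPM; the stem gate had required Dntt and Flt3 to be at 0. Of this sum in Pf4-rich cells, Flt3 gave 132 CPM and Dntt 45.3 CPM, and the part of such cells in the levels above was not tested. Ly6a, which encodes Sca-1, was at 12.3 CPM (2.55 to 36.1) in Pf4-rich cells against 100.7 CPM (92.7 to 109) in stem-gated Pf4-negative cells, and Kit at 78.2 CPM (47.1 to 122) against 172 CPM (161 to 183). The RNA of both sort markers was thus lower in the Pf4-rich cells of this sort.

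Label differences were first taken over all cells of a library. In the sums over all cells, fewer cells of a type and less RNA per cell cannot be told apart. With barcode list as covariate, edgeR called 162 of 14608 genes (1.11%) at an adjusted p below 0.05. Of the 31 genes 26 passed its filter on low counts, and 1, Plcb1, was called. At an unadjusted p below 0.05 there were 5 of the 26, against 19.1% of all genes tested. The difference was above 0 in 17 and below 0 in 9, with a median log2 difference of 0.25 against 0.0084 over all genes. Dropping the covariate left edgeR with 0 calls, and 697 genes (4.77%) had an unadjusted p below 0.05. DESeq2 with the covariate called 856 genes, among them Plcb1 as the single gene of the list. In list A alone edgeR called 1 of 25, again Plcb1, against 2.44% of all genes.

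Plcb1, a phospholipase C that acts downstream of G protein-coupled receptors, lies on chromosome 2 from 134786067 to 135475258 on the plus strand. Its CPM was 41.1, 56.2 and 15.3 in KO1, KO2 and KO3, and 27.9, 23.95, 17.5 and 9.87 in WT1 to WT4. Within each list the knockout-labelled libraries were the higher ones, while over all 7 the groups overlapped, since KO3 lay below 3 of the WT-labelled libraries. The log2 difference was 0.94 (SE 0.18, edgeR adjusted p 0.0434). The call rests on single libraries: the adjusted p was 0.0779 without KO2, 0.0760 without WT1, 0.0887 without WT2 and 0.107 without WT3, each with the difference above 0. It was 0.0890 (log2 difference 0.84) when cells with 5 or more Pf4 UMIs were left out. In stem-gated cells Plcb1 was at 33.5, 60.3 and 50.2 CPM against 48.2, 42.5, 45.5 and 30.1 CPM, overlapping groups with a log2 difference of 0.27 (SE 0.21).

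The 2 genes that mark the path were not called. Pf4 was at 44.1, 1.44 and 496 CPM in KO1 to KO3 and at 5.78, 47.9, 8.80 and 147 CPM in WT1 to WT4, a log2 difference of 0.65 (SE 1.38, edgeR adjusted p 0.835). Its libraries spanned the whole range in both groups, and the sign turned without KO1 (-0.58). Itga2b was at 22.3, 11.8 and 44.6 CPM against 14.2, 15.0, 14.2 and 23.3 CPM, a log2 difference of 0.47 (SE 0.21, edgeR adjusted p 0.268). KO2 was the lowest of all 7 libraries for Itga2b, and without it the adjusted p was 0.0443.

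Most of the abundant genes of the list overlapped between the labels. Cd9 was at 50.8, 30.8 and 153 CPM against 35.2, 30.5, 44.8 and 108 CPM, and Inpp4b at 73.8, 74.85 and 55.8 CPM against 60.8, 74.3, 70.9 and 41.6 CPM. Plek was at 80.1, 114 and 117 CPM against 70.4, 97.3, 89.7 and 184 CPM. In Cd9 the list B libraries were the high ones in both groups, and in Inpp4b the low ones. Apoe was at 64.7, 71.2 and 105 CPM against 54.8, 44.9, 28.8 and 75.8 CPM, higher under the knockout label within both lists, with a log2 difference of 0.61 (SE 0.19, edgeR adjusted p 0.142). Med12l was at 67.8, 78.8 and 72.1 CPM against 82.1, 129, 108 and 74.6 CPM, and Slc14a1 at 28.8, 23.4 and 50.9 CPM against 36.9, 48.6, 53.0 and 53.0 CPM. For these 2 genes the knockout-labelled libraries were the lower ones in list A, and in list B the pair differed by a log2 value of -0.05 for Med12l and -0.06 for Slc14a1. The log2 difference over both lists was -0.39 for Med12l (SE 0.18, edgeR adjusted p 0.268) and -0.59 for Slc14a1 (SE 0.19, edgeR adjusted p 0.150).

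**Figure D4:**
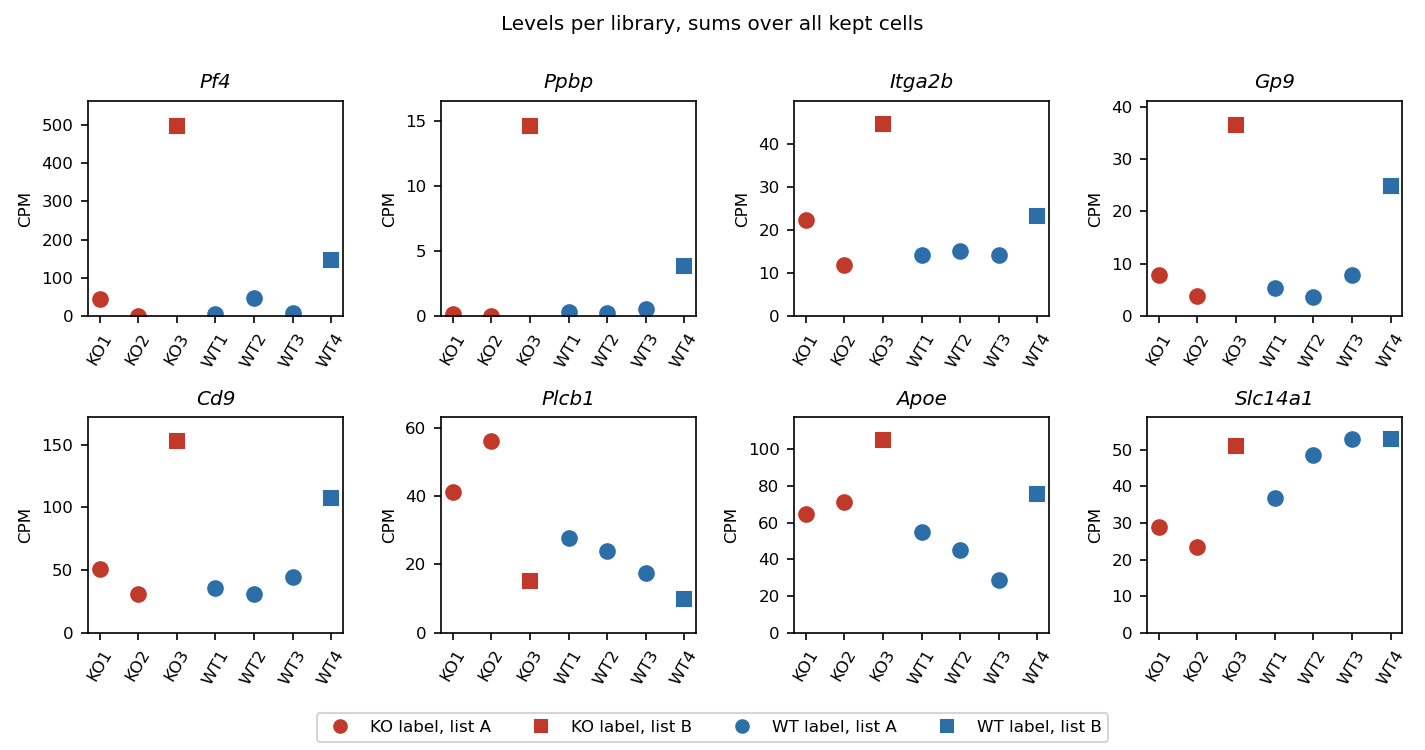
CPM (y axis, linear from 0) of 8 genes in the 7 libraries (x axis), from counts summed over all kept cells; colour gives the label and shape the barcode list. For Pf4, Ppbp, Itga2b, Gp9 and Cd9 the list B squares stand highest, KO3 above WT4; for Plcb1 they stand lowest, and within each list the knockout-labelled libraries are higher.

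Some low genes were among those with the largest differences. Tuba8 was at 6.63, 1.60 and 11.5 CPM against 2.07, 1.73, 2.17 and 7.05 CPM, and F2rl2, a receptor of the thrombin receptor family, at 1.91, 1.33 and 5.40 CPM against 0.889, 0.761, 1.54 and 2.12 CPM. Their log2 differences were 0.96 (SE 0.38, edgeR adjusted p 0.224) for Tuba8 and 0.87 (SE 0.32, edgeR adjusted p 0.193) for F2rl2. KO2 lay within the WT range for F2rl2 and below it for Tuba8, and without KO2 the edgeR adjusted p of Tuba8 was 0.0467, while without KO1 its difference was 0.22. Samd14 was at 1.51, 1.88 and 5.76 CPM against 1.70, 3.12, 1.86 and 5.86 CPM, a difference of -0.27 (SE 0.27). Thbs1 was at 0.887, 5.81 and 2.05 CPM against 13.8, 12.5, 2.17 and 0.647 CPM, a difference of -0.66 (SE 1.20). Its spread within a label exceeded the difference, and without KO1 the sign turned (0.25).

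Within the barcode lists the label differences did not run alike. In list B (1 library per label, no test) 22 of the 26 genes were higher in KO3 than in WT4, against 50.5% of all genes tested, and 5 were higher by at least 1 on the log2 scale, against 0.657% of all genes, or 2.9% in either direction. None of the 26 was lower by that much, against 2.25% of all genes. In list A 13 of the 26 were higher under the knockout label, against 52% of all genes. Medians were 0.58 in list B and -0.06 in list A, against 0.0031 and 0.017 over all genes. The sign was the same in both lists for 15 of the 26, against 68.6% of all genes. In 3 genes the lists had differences of at least 1 in size and opposite sign in the lists, a pattern found in 0.116% of all genes; these were Ppbp, Treml1 and Thbs1, named because of it. Ppbp was at 0.199, 0 and 14.6 CPM in KO1 to KO3 and at 0.296, 0.208, 0.583 and 3.88 CPM in WT1 to WT4, giving -1.73 in list A and 1.90 in list B. The list A value of Ppbp rests on 9, 0, 4, 3 and 11 UMIs. Treml1 was at 1.13, 0.0550 and 7.58 CPM against 0.815, 1.32, 0.477 and 3.04 CPM, giving -1.25 and 1.30. The difference between the lists was tested as an interaction in edgeR: 2 of 14608 genes were called (0.0137%) and 0 of the 26, where Ppbp had an unadjusted p of 0.00562 and Rab27b of 0.00942 (edgeR adjusted p 1.00 for each). With cells of 5 or more Pf4 UMIs left out, the median of the 26 genes over both lists fell from 0.25 to -0.02. Of these genes 13 were above and 13 below 0. Such cells numbered 89 in KO3, 36 in WT4, 8 in KO1 and 1 in WT2, so sums in both lists changed. Pf4, which chose them, is among the 26.

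**Figure D5:**
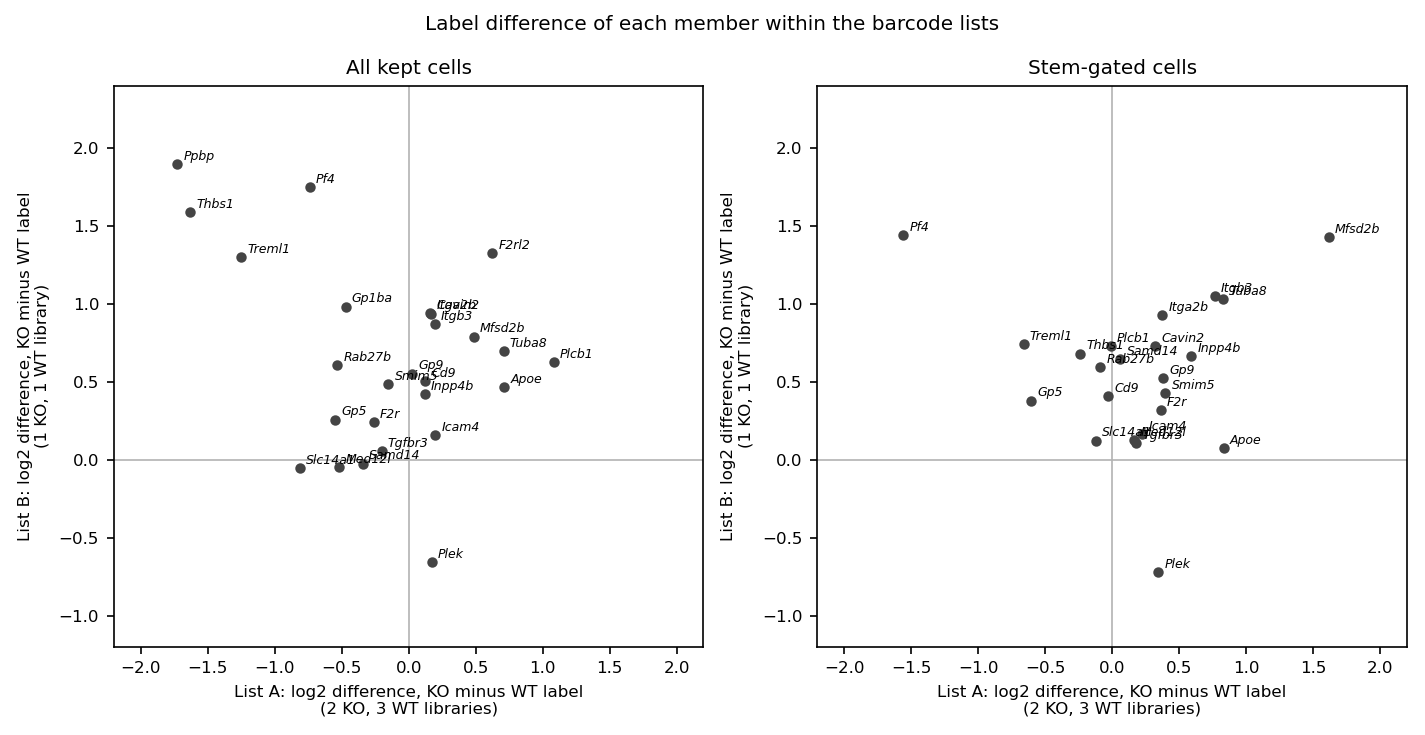
Log2 difference (knockout minus WT label) of each gene that passed the filter within list A (x axis, 2 and 3 libraries) and list B (y axis, 1 library each), for all kept cells (left) and stem-gated cells (right). Most points lie above 0 on the y axis on both sides, while they spread around 0 on the x axis; Ppbp, Treml1 and Thbs1 on the left and Pf4 on the right lie far to the upper left.

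In the stem gate the label comparison had fewer counts. edgeR called 1 of 11257 genes (0.00888%) and 0 of the 23 genes of the list that passed the filter. At an unadjusted p below 0.05 there were 8 of the 23, against 3.77% of all genes tested, and DESeq2 called 0 of the 23 as well (6 at an unadjusted p below 0.05, against 2.59% of all genes). In list A alone edgeR called 0 of 21, against 0.129% of all genes, and 4 were at an unadjusted p below 0.05, against 3.98% of all genes. The difference was above 0 in 19 and below 0 in 4, with a median of 0.28 against -0.0065 over all genes. In list B 22 of the 23 were higher in KO3, against 46.3% of all genes, and 4 by at least 1 on the log2 scale, against 0.32% of all genes, or 0.933% in either direction. In list A 15 were higher under the knockout label, against 48.9%. With cells of 5 or more Pf4 UMIs left out, 20 genes of the list passed the filter in the stem gate. Their median over both lists was 0.27, against -0.0099 over all genes, with 16 above and 4 below 0. In stem-gated cells without a Pf4 UMI 18 passed, with a median of 0.12 against -0.0042, 14 above and 4 below 0.

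Mfsd2b had the largest of these differences. It was at 11.6, 9.04 and 28.1 CPM in the stem-gated cells of KO1 to KO3 and at 1.27, 6.15, 3.06 and 10.1 CPM in WT1 to WT4. Within each list every knockout-labelled library lay above the WT-labelled ones; over all 7, WT4 reached into the knockout range. The log2 difference was 1.52 (SE 0.30, edgeR adjusted p 0.229). Itgb3 was at 19.3, 18.8 and 17.8 CPM against 13.3, 10.1, 9.93 and 8.29 CPM, with no overlap between the labels, which held for 1.34% of all genes, and a log2 difference of 0.92 (SE 0.22, edgeR adjusted p 0.319). Both passed the threshold when no filter on low counts was applied (edgeR adjusted p 0.000183 for Mfsd2b and 0.0471 for Itgb3). Itgb3 was also the single gene of the list whose labels did not overlap over all cells, a pattern of 5.74% of genes there.

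Itga2b in the stem gate was at 50.7, 24.9 and 75.4 CPM against 24.7, 30.7, 26.7 and 39.4 CPM, a log2 difference of 0.68 (SE 0.21, edgeR adjusted p 0.701), and KO2 again lay among the WT-labelled libraries. Tuba8 was at 6.88, 1.51 and 22.0 CPM against 2.54, 1.12, 1.53 and 10.5 CPM, a difference of 1.21 (SE 0.37, edgeR adjusted p 0.703). Pf4 ranged from 3.01 to 1161 CPM under the knockout label and from 17.1 to 427 CPM under the WT label, with a difference of -0.42 (SE 1.77). It was -1.56 in list A and 1.44 in list B, and 0.0888% of all genes had differences of opposite sign and at least 1 in size. Its sign turned without KO2 (0.42) and without WT2 (1.37). Slc14a1 was at 58.5, 46.7 and 68.0 CPM against 44.4, 67.6, 61.5 and 62.4 CPM, a difference of -0.04 (SE 0.18). Plek was at 79.5, 60.3 and 84.1 CPM against 45.7, 90.6, 39.0 and 139 CPM, and Thbs1 at 4.30, 18.1 and 3.17 CPM against 21.6, 21.8, 2.29 and 1.77 CPM. For these last 3 genes the spread within a label was larger than the difference.

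A second list of 24 megakaryocyte and platelet genes, chosen with earlier results known, was read beside the first. In the sums over all cells 23 passed the filter, 1 was called higher and 2 lower under the knockout label, against 1.11% of all genes called. The median difference of these 23 was 0.067. Selp, the adhesion receptor P-selectin of alpha granules, was at 24.3, 25.8 and 16.2 CPM against 9.78, 10.4, 5.83 and 5.58 CPM, with no overlap and a log2 difference of 1.54 (SE 0.18, edgeR adjusted p 0.0115). It stayed below the threshold with each library left out (edgeR adjusted p 0.00810 to 0.0246). Mmrn1, which encodes the granule protein multimerin, was at 5.92, 6.64 and 14.7 CPM against 15.3, 24.7, 29.4 and 29.2 CPM, again with no overlap, and a difference of -1.60 (SE 0.25, edgeR adjusted p 0.0296); without KO1, KO2, WT2 or WT3 the adjusted p was 0.174, 0.0853, 0.0715 and 0.0684. Tbxa2r, the thromboxane receptor, was at 6.25, 4.76 and 26.2 CPM against 13.4, 14.1, 17.1 and 46.3 CPM, lower under the knockout label within each list, with a difference of -1.22 (SE 0.17, edgeR adjusted p 0.0191, and 0.0610 without WT3). Serpine2, a protease inhibitor, had a difference of 1.56 (SE 0.45, edgeR adjusted p 0.140). In the stem gate 0 of 20 genes of this list were called, with Selp at 1.43 (SE 0.31) and Mmrn1 at -0.81 (SE 0.18), both at an edgeR adjusted p of 0.229.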

How the data were processed

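UMI counts per gene and barcode of 7 libraries were deposited by the authors as sparse matrices of whole numbers per the file headers, with no normalization seen in the totals. The submitters' processing notes name Cell Ranger 7.0.0, Seurat 4.4.0 and the build mm10. Barcodes with at least 1000 UMIs, 500 genes and at most 10% mitochondrial counts were kept. Scrublet marked 0 to 4 cells per library and is taken as not having worked, so doublets were kept; in an alternative the top-scoring cells were dropped at 0.8% per 1000 barcodes. Cells were thinned to 3000 UMIs for shares and stages. Counts were summed per library over all cells and over stem-gated cells and tested in edgeR 4.0.16 by quasi-likelihood (TMM, filterByExpr, robust, two-sided, barcode list as covariate, Benjamini-Hochberg over all genes tested); CPM carry TMM factors, and within-list differences are of log2 CPM with a prior count of 2. Shares were compared by exact permutation. DESeq2 1.42.0 was an alternative. On simulated counts for the sums over all cells (200 changed genes), edgeR recovered 67.5% at a log2 fold of 1 (14445 genes, 9.40% of calls false) and 92.5% at 2 (14415 genes, 5.61% false).

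The genes, lists and tests were chosen with earlier results of these data known. Described in full were Pf4, Itga2b, called genes, the 6 highest by mean CPM, the 4 largest rises and falls, and genes whose lists differ by at least 1 with opposite sign. Sums over Pf4-positive cells were not tested, because KO2 and WT2 had 10 and 16 such cells, under the 20 required.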

Additional observations from a re-analysis of the deposited data

Results flagged for a closer look

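In 5 of 24 values examined over the 4 WT-labelled libraries, 1 library stood far from the others, where chance marks about 1 value in 20. All 5 were WT4, the library of barcode list B. Its share of Pf4-positive cells was 9.40%, against 1.49% to 2.47% in WT1 to WT3. Itga2b over all cells was at 23.3 CPM against 14.2 to 15.0 CPM, and Ppbp at 3.88 CPM against 0.208 to 0.583 CPM. Tuba8 was at 7.05 CPM over all cells against 1.73 to 2.17 CPM, and in the stem gate at 10.5 CPM against 1.12 to 2.54 CPM. The 5 values come from the same library, so they are not independent.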

How the results depend on the processing

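The count of called genes of the list over all cells, 1, was 0 without the covariate, with doublets removed, in cells without a Pf4 UMI, at equal cells and UMIs, and with cells of 5 or more Pf4 UMIs left out (an alternative chosen after seeing the data); with 1 library left out it ranged from 0 to 2. In stem-gated cells the count, 0, was 2 with no gene filter and 0 with any library left out. Whether replicate numbers pair the libraries could not be settled. Over all cells, deviations from the label means correlated at 0.53, 0.72 and -0.36 for replicates 1, 2 and 3. Barcode list was not removed from these deviations. KO1, KO2, WT1 and WT2 share list A, while KO3 is of list B and WT3 of list A, so list and pairing cannot be told apart. With a replicate block the counts were 4 over all cells (2277 genes called in all) and 1 in the stem gate (139 in all). The counts of all genes called over all cells were also 362 in list A alone, 547 with no gene filter, 856 by DESeq2, and from 16 to 349 with 1 library left out; in the stem gate they were 14, 88, 8 and 1 to 16, and 38 with no condition on Flt3, Dntt, Mpo and Cd48; without the covariate both counts were 0.

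The difference in the Pf4-positive share, 0.636 points, was -0.729 in list A alone and ranged from -2.55 to 2.60 with 1 library left out. Apart from the value in list A alone, these differences did not take barcode list into account. The number of genes appearing within the stem gate, 5, was 12 at 0.25 of the highest level.

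Differences that changed sign over all cells were these, the cause not being tested. With the block, Pf4 was -0.54, Ppbp -1.16, Treml1 -0.87 and Plek 0.21. In list A alone, Treml1 was -0.37 and Plek 0.15. With cells of 5 or more Pf4 UMIs left out, Pf4 was -0.53, Ppbp -0.80 and Treml1 -0.0508, and Treml1 was -0.30 in cells without Pf4. The cells with 5 or more Pf4 UMIs were 89 in KO3, 36 in WT4, 8 in KO1 and 1 in WT2. They were chosen by Pf4, so the Pf4 value is not independent of that choice. By DESeq2, Ppbp was -0.60. With 1 library left out, Pf4 ranged from -0.58 to 1.70, Ppbp from -1.50 to 1.01, Treml1 from -0.34 to 0.87, Plek from -0.31 to 0.16 and Thbs1 from -1.60 to 0.25. In the stem gate Pf4 was 1.01 without the covariate, Plek 0.29 in list A and 0.10 with the block, and Thbs1 0.19 at 3 stem markers; with 1 library left out, Pf4 ranged from -1.30 to 1.37, Plek from -0.32 to 0.28, Thbs1 from -0.58 to 0.52 and Slc14a1 from -0.13 to 0.0631. Plcb1 kept its direction in all 19 alternatives and lost its call in 9. Gp1bb, Gp6, Tubb1, Clec1b and Alox12 did not pass the filter; with no gene filter over all cells, none of them was called (edgeR adjusted p 0.100 to 0.996).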
